A study of Mus musculus with 6 samples.

Results

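The mRNA levels of 10 genes of macrophage inflammation were followed across genotypes and experiment codes in elicited mouse peritoneal macrophages: the cytokine genes Il1a, Il1b, Il1rn, Il6, Il10, Il18, Tnf and Tgfb1, the itaconate enzyme gene Irg1 (now Acod1) and the inflammasome sensor gene Nlrp3. They were taken by symbol from a table of 25509 gene rows, and each symbol stood on 1 row. The 6 poly-A libraries came from C57BL/6 mice, 3 from wild-type (WT) animals and 3 from Tg-ACE animals, which overexpress angiotensin-converting enzyme (ACE), a peptidase that generates angiotensin II. All cells were drawn into the peritoneal cavity with thioglycollate, collected on day 4, purified on Percoll and kept in culture for 2 h to collect those that adhered, so no group was unstimulated or treated with a microbial product. Replicate 1 of each genotype carries the code Exp-156 in its description, and the other replicates, 2 and 3, carry Exp-156b. The meaning of the codes, the promoter or cell type that drives the transgene and the age and sex of the mice are not in the labels. Nor is it stated whether replicates were separate mice, and p-values therefore reflect only how these libraries spread, part of which may be technical.

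Macrophages make IL-1α and IL-1β, which act on a common receptor, and also the receptor antagonist encoded by Il1rn, which occupies that receptor without signalling. Pro-IL-1β and pro-IL-18 are cut to their active forms by caspase-1 after sensors such as NLRP3 assemble an inflammasome, while NF-κB and AP-1 factors drive transcription of Il1b, Il6, Tnf, Irg1 and Nlrp3 after Toll-like receptor signals. IL-10 and TGF-β1 restrain inflammatory responses, and TGF-β1 is secreted in a latent form, so that its mRNA level is no measure of its activity.

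Library totals lay between 24294244 and 28120393 expected counts. Ace stood at 16.7, 7.61 and 11.6 CPM (read counts relative to library sizes scaled by the TMM method) in WT replicates 1 to 3 and at 100.4, 25.7 and 31.8 CPM in Tg-ACE replicates 1 to 3, so the genotype labels did not overlap for this gene. Its log2 fold change of 1.95 (SE 0.23) missed the threshold of edgeR's quasi-likelihood test (Benjamini-Hochberg adjusted p = 0.130). The female-specific transcript Xist stood at 0.408 and 0.526 CPM in the Exp-156 libraries and between 327.3 and 455.1 CPM in the Exp-156b libraries, and the Y-linked gene Ddx3y was at 47.8 and 51.4 CPM against at most 0.107 CPM. The experiment code therefore cannot be told apart from the sex of the mice, nor from anything else that differed between the codes. Macrophage genes (Adgre1, Csf1r, Itgam, Cd68, Mertk, Fcgr1, Lyz2 and Cd14) summed to between 18065 and 22035 CPM in every library. That sum was mostly Lyz2 and does not show even levels of each gene, as 6 of the 9 rows were higher in Exp-156.

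Averaged over the experiment codes, no member passed the test between Tg-ACE and WT macrophages. In an edgeR fit with the experiment code and the genotype as terms, 0 of the 9 members that could be tested passed at an adjusted p under 0.05, and 0 had an unadjusted p under 0.05. The same was found, 0 of 9 by either measure, with DESeq2 and limma-voom on the same terms. Over all 13256 genes tested, 2 passed (Dhrs7 and Gm10709, 0.0151% of genes) and 6.49% had an unadjusted p under 0.05. By experiment code, in contrast, Il1b, Il1rn and Tnf were higher and Il1a was lower in Exp-156, 4 of 9 members, where 23.4% of all genes tested were higher, 19.8% lower and 43.2% passed in either direction. The members' share is thus near the background of these libraries, and Il1b entered the test only because the Exp-156 libraries hold it, so the count is not a result about the group. The median log2 fold change of the 9 members was 0.06 by genotype and 0.16 by experiment code, beside -0.01 and 0.01 over all genes.

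**Figure D1:**
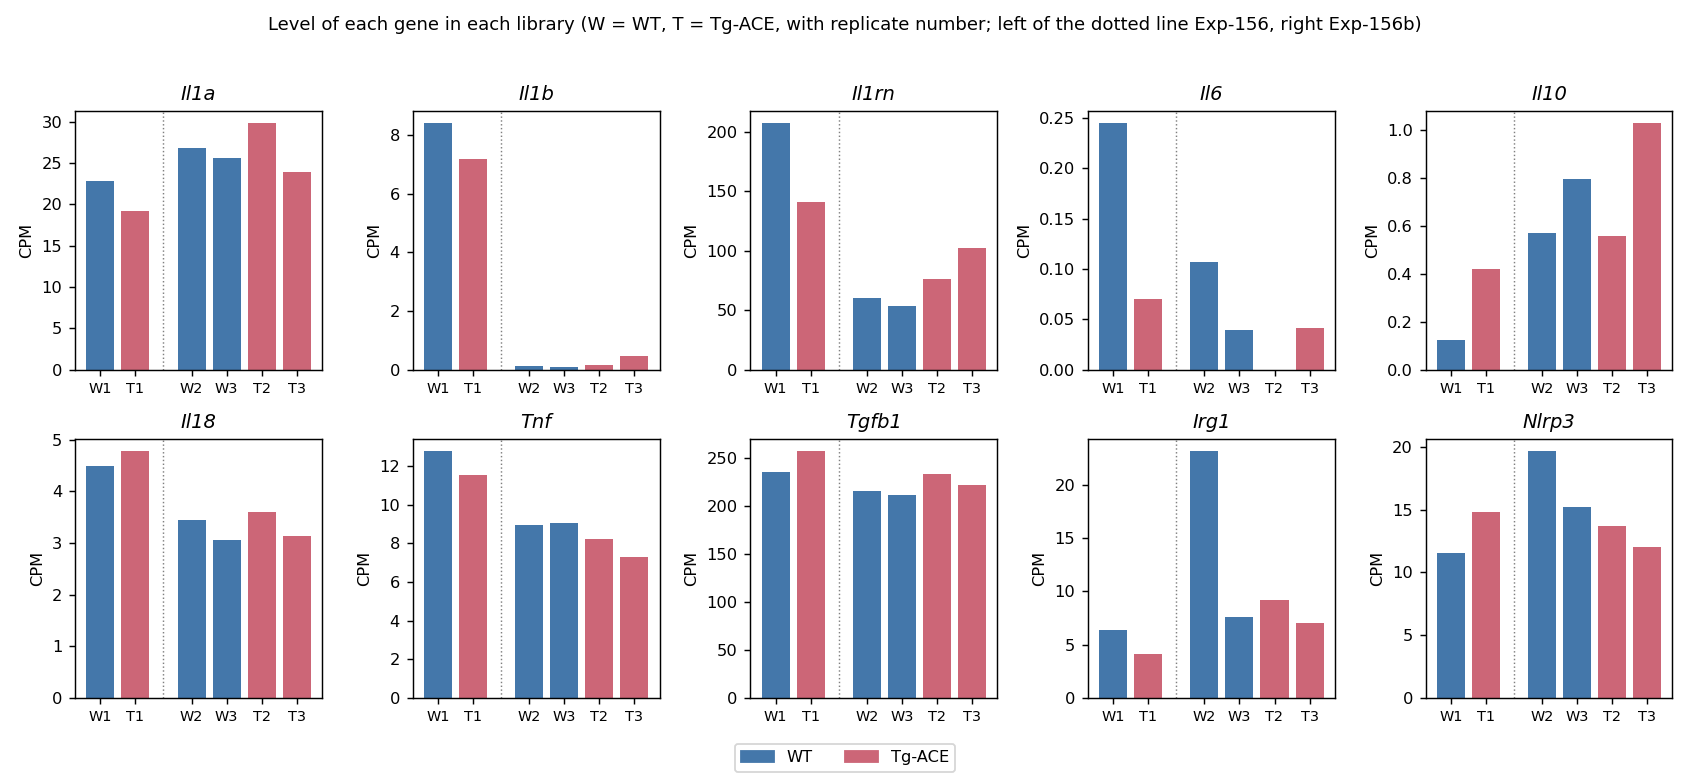
Level of each member in CPM (vertical axes, linear from 0, a scale for each gene) in each of the 6 libraries (horizontal axis, W for WT and T for Tg-ACE with the replicate number; 1 bar is 1 library, so there are no error bars). The Exp-156 libraries, left of the dotted line, stand at 8.40 and 7.19 CPM for Il1b, and the 4 libraries on the right at 0.452 CPM or less.

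Levels were compared between genes only per length, as CPM per kb of exon. In that order Tgfb1 was highest, with a median of 45.2 CPM per kb over the 6 libraries, followed by Il1rn at 16.1, Il1a at 12.5, Tnf at 5.50, Nlrp3 at 3.52, Il18 at 3.41 and Irg1 at 2.77 CPM per kb. Il10 followed at 0.430, Il1b at 0.160 and Il6 at 0.0229 CPM per kb. The ranges of neighbours did not overlap between Tgfb1 and Il1rn, between Il1a and Tnf, or between Irg1 and Il10. All other neighbours overlapped, although Tnf was above Nlrp3 and Il1b above Il6 within each of the 6 libraries. Il1a exceeded Il1b per length in every library of both codes.

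Il1b, which encodes the secreted pyrogenic cytokine IL-1β, varied most among the tested members. WT replicates 1 to 3 stood at 8.40, 0.107 and 0.0796 CPM, from 206, 3 and 2 counts. Tg-ACE replicates 1 to 3 stood at 7.19, 0.160 and 0.452 CPM, from 205, 4 and 11 counts. Both Exp-156 libraries were high and all Exp-156b libraries low, whatever the genotype, and the codes did not overlap. The fitted ratio of Exp-156 to Exp-156b was 39.5 (95% interval 20.4 to 76.7), a log2 fold change of 5.30 (SE 0.41, edgeR adjusted p = 7.83e-05). The gene did not pass the filter on low counts in the Exp-156b libraries alone, so it could enter this test only by being higher in Exp-156, and the p-value lends the difference no support beyond the values themselves. Summed counts gave a ratio of 89.5 within WT (exact 95% interval 37.7 to 278.6) and 23.7 within Tg-ACE (14.0 to 43.1), where the intervals cover counting error only. The log2 fold change was 4.54 without the WT library of Exp-156 (replicate 1) and 6.41 without its Tg-ACE library. Leaving out Tg-ACE replicate 3 gave 6.03.

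By genotype Il1b had a log2 fold change of 0.26 (SE 0.44, 95% interval -0.75 to 1.27, edgeR adjusted p = 0.930). In the Exp-156 pair the Tg-ACE CPM was 0.856 times that of WT (exact 95% interval 0.702 to 1.04). Within Exp-156b the ratio was 3.24 (1.12 to 11.4), from 15 counts against 5, of which 11 were in Tg-ACE replicate 3. Both intervals cover counting error only and not the spread between libraries, so neither tests a genotype difference. The test of the difference between these ratios gave a log2 value of -1.88 (SE 0.81, unadjusted p = 0.0565 in edgeR, adjusted p = 0.702).

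Il1a and Il1b lie next to each other on chromosome 2 of GRCm38, both on the reverse strand, Il1a at chr2:129299610-129309972 and Il1b at chr2:129364570-129371139, with 54.6 kb between them. Il1a encodes IL-1α, which is active as a full-length precursor and is also found bound to the membrane and in the nucleus. It stood at 22.8, 26.8 and 25.6 CPM in WT replicates 1 to 3 and at 19.2, 29.8 and 23.9 CPM in Tg-ACE replicates 1 to 3, and so varied far less than its neighbour. The Exp-156 libraries were the lowest of each genotype and the codes did not overlap. The log2 fold change by code was -0.34 (SE 0.11, edgeR adjusted p = 0.0441), opposite in sign to that of Il1b. This call was lost without WT replicate 1, 2 or 3 or Tg-ACE replicate 1 or 2, with edgeR adjusted p between 0.0554 and 0.360. The log2 fold change was -0.48, -0.35 and -0.38 without WT replicates 1, 2 and 3, and -0.20 and -0.25 without Tg-ACE replicates 1 and 2. By genotype the difference was -0.06 (SE 0.11, 95% interval -0.30 to 0.19, edgeR adjusted p = 0.940), with overlapping libraries.

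Il1rn, which encodes the receptor antagonist, lies on chromosome 2 far from that pair, at chr2:24336853-24351494 on the forward strand. It stood at 207.2, 59.9 and 53.3 CPM in WT replicates 1 to 3 and 141.3, 76.1 and 102.3 CPM in Tg-ACE replicates 1 to 3. Both Exp-156 libraries lay above all of Exp-156b, with a ratio of 2.47 (95% interval 1.67 to 3.65) and a log2 fold change of 1.31 (SE 0.24, edgeR adjusted p = 0.00399). Without WT replicate 1 the log2 fold change fell to 0.67 (edgeR adjusted p = 0.0372).

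In these libraries the genotype difference of Il1rn had opposite signs under the 2 codes. Exp-156 holds only 1 library of each genotype. In every interaction test the spread therefore comes from Exp-156b alone, with 2 residual degrees of freedom. The Tg-ACE library was the lower one in Exp-156, by 0.55 on the log2 CPM scale (log2 difference -0.55), while in Exp-156b both Tg-ACE libraries lay above both WT libraries, with a mean log2 difference of 0.64. The interaction term was -1.21 (SE 0.24, 95% interval -1.81 to -0.62, unadjusted p = 0.00225), which missed edgeR's threshold over all genes (adjusted p = 0.690). DESeq2 gave the same size, -1.22, with an adjusted p of 0.0151. In edgeR 0 of 9 members passed the interaction test and 2 had an unadjusted p under 0.05, Il1rn and Nlrp3, beside 0% and 7.19% of all 13684 genes tested. DESeq2 called 1 of 9, Il1rn, and 13 of all genes. Averaged over the codes the genotype difference of Il1rn was 0.25 (SE 0.24, 95% interval -0.30 to 0.80, edgeR adjusted p = 0.865).

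The balance of antagonist to agonist transcripts followed the experiment code, but in opposite directions for the 2 agonists. In Exp-156 Il1rn was lower relative to Il1b and higher relative to Il1a. Per length, Il1rn was 8.49 and 6.77 times Il1b in WT and Tg-ACE of Exp-156. In Exp-156b it was 193.6 and 230.8 times Il1b in the WT libraries and 164.3 and 77.9 times in the Tg-ACE libraries, ratios that rest on 2 to 11 counts of Il1b. Against Il1a, Il1rn stood at 3.23 and 2.62 in Exp-156 and between 0.743 and 1.53 in Exp-156b. Il1rn thus exceeded Il1a per length in both Exp-156 libraries and in Tg-ACE replicate 3, and lay below it in the other libraries.

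**Figure D2:**
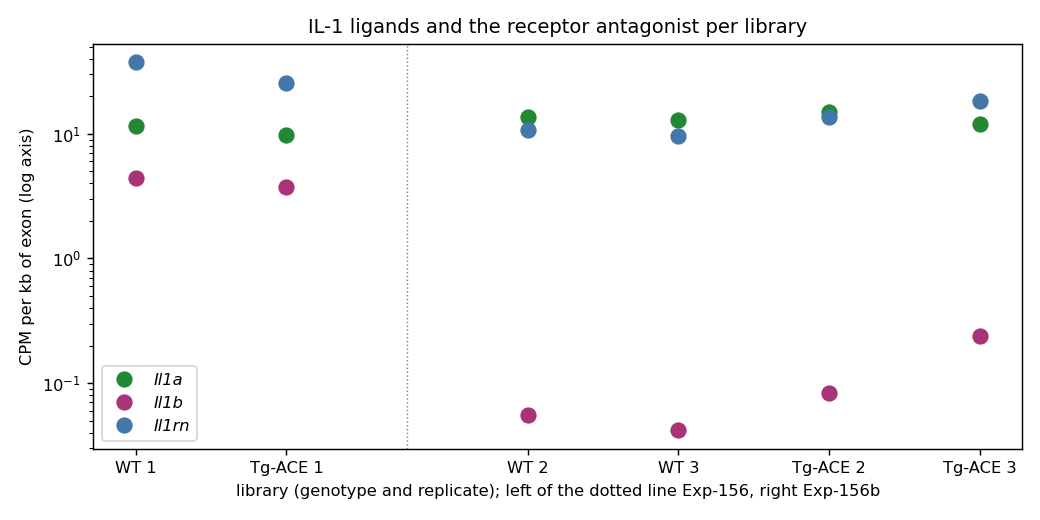
Il1a, Il1b and Il1rn in CPM per kb of exon (vertical axis, log scale) in each library (horizontal axis; 1 point is 1 library). Il1rn lay above Il1a in both Exp-156 libraries and Il1b lay lowest in every library, closest to the others in Exp-156.

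Tnf, the gene of tumour necrosis factor, lies at chr17:35199381-35202007 on the reverse strand. It stood at 12.8, 8.96 and 9.07 CPM in WT replicates 1 to 3 and 11.6, 8.22 and 7.32 CPM in Tg-ACE replicates 1 to 3. Again both Exp-156 libraries were the highest, with a ratio of 1.45 (95% interval 1.21 to 1.74) and a log2 fold change of 0.54 (SE 0.11, edgeR adjusted p = 0.00656). This call was lost without Tg-ACE replicate 1 (0.50, edgeR adjusted p = 0.0630). In each code the Tg-ACE libraries lay below the WT libraries, by -0.14 in Exp-156 and -0.21 in Exp-156b on the log2 scale. The fitted genotype difference of -0.19 (SE 0.11, 95% interval -0.44 to 0.06) did not pass in edgeR (unadjusted p = 0.121, adjusted p = 0.799).

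The upstream sequences of the 4 genes that passed by experiment code are shown so that the letters around their starts can be compared. They are the 250 bases before the annotated start, from RefSeq on GRCm38.p6, for Il1b at chr2:129371140-129371389 and Il1a at chr2:129309973-129310222 (both reverse strand), Tnf at chr17:35202008-35202257 (reverse) and the first and last annotated starts of Il1rn at chr2:24336610-24336859 and chr2:24345121-24345370 (forward). Capitals mark matches, on either strand, to TATAAA (the TATA box), TGANTCA (the AP-1 element) or GGNNTTTCC (a form of the NF-κB element); no 2 marked matches overlap.
Il1b: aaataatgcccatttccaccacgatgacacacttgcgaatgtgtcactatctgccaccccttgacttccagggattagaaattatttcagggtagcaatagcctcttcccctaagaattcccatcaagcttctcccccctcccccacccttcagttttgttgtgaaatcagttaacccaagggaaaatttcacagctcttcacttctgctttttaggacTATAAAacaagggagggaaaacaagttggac
Il1a: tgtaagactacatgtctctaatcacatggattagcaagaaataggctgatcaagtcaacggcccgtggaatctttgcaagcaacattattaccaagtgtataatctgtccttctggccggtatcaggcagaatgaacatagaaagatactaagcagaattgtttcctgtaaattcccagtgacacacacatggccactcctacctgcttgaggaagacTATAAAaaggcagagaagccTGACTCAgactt
Tnf: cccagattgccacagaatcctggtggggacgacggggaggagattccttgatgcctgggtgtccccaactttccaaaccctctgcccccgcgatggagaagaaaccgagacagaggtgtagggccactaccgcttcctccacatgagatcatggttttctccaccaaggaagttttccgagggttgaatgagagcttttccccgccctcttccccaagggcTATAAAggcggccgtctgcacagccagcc
Il1rn, first start: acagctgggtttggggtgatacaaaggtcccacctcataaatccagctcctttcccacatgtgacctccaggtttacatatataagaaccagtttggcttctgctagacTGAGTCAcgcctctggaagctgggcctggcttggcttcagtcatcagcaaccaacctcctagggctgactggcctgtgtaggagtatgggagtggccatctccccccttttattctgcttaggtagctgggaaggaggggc
Il1rn, last start: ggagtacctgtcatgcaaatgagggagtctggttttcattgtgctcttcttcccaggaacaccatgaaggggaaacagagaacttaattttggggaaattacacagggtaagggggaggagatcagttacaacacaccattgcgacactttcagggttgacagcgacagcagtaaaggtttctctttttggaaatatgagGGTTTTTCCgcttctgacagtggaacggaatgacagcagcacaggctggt

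The TATA box began 31 bases before the start in Il1b, 32 in Il1a and 29 in Tnf. Il1a carried an AP-1 match 12 bases before its start, and Il1rn had 1 at 141 bases before its first start and an NF-κB match 50 bases before the last. The windows of Il1b and Tnf held no AP-1 match and no match to this form of the NF-κB element. The 9 members with a promoter entry had 12 starts, of which 5 held a TATAAA match, 3 an AP-1 match and 5 this form of the NF-κB match, those last in Il1rn, Il6, Irg1 and Nlrp3. Starts of the same gene share a locus and can overlap. Of 32851 mouse promoters of this length, 12.4% held TATAAA, 6.75% the AP-1 and 4.93% the NF-κB letters. A match is a run of letters and says nothing of binding in these cells.

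Il6 encodes a cytokine that drives the acute phase response, and lies at chr5:30013114-30019981. It was at the limit of detection, with 6, 3 and 1 counts in WT replicates 1 to 3 and 2, 0 and 1 in Tg-ACE replicates 1 to 3, of which 3 counts correspond to between 0.107 and 0.123 CPM. It did not pass the filter on low counts and was not tested, and no difference was detectable at this depth. Il10, the gene of an anti-inflammatory cytokine at chr1:131019845-131024974, was also low. It stood at 0.122, 0.569 and 0.796 CPM in WT replicates 1 to 3 (3, 16 and 20 counts) and 0.421, 0.559 and 1.03 CPM in Tg-ACE replicates 1 to 3 (12, 14 and 25 counts). Both Exp-156 libraries were below all of Exp-156b, a log2 fold change of -1.44 (SE 0.52) that did not pass in edgeR (adjusted p = 0.0559). With upper-quartile scaling or without Tg-ACE replicate 2 it passed in edgeR (adjusted p = 0.0482 and 0.0298). Whether Il10, with 3 and 12 counts in Exp-156, would pass the filter on low counts there alone was not tested. These p-values therefore lend the difference no support beyond the values themselves. The log2 fold change by code was -0.90 without WT replicate 1 and -2.43 with Tg-ACE replicate 1 left out. By genotype it was 0.53 (SE 0.45, 95% interval -0.52 to 1.57, edgeR adjusted p = 0.850), and it ranged from 0.22 with replicate 1 of either genotype left out to 0.87 when Tg-ACE replicate 2 was left out.

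Tgfb1, at chr7:25687002-25705077, was abundant and even. It stood at 235.6, 215.5 and 211.7 CPM in WT replicates 1 to 3 and at 257.1, 233.9 and 221.8 CPM in Tg-ACE replicates 1 to 3. Each Tg-ACE library was above the WT library of the same number, but the genotypes overlapped, and the log2 difference of 0.10 (SE 0.06, 95% interval -0.04 to 0.24) did not pass in edgeR (unadjusted p = 0.125, adjusted p = 0.800). Of the 9 tested members it had the narrowest interval by genotype. By experiment code it differed by 0.16 (SE 0.06, edgeR adjusted p = 0.0796), with both Exp-156 libraries above all of Exp-156b.

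Nlrp3, at chr11:59541568-59566956, was at 11.5, 19.6 and 15.2 CPM in WT replicates 1 to 3 and 14.8, 13.7 and 12.0 CPM in Tg-ACE replicates 1 to 3. It was the 1 tested member whose libraries overlapped between codes (log2 fold change -0.18, SE 0.19, edgeR adjusted p = 0.485). Its genotype difference was 0.36 in Exp-156 and -0.43 in Exp-156b on the log2 scale, an interaction of 0.79 (SE 0.27, 95% interval 0.13 to 1.45) with an unadjusted p of 0.0258 that did not pass in edgeR (adjusted p = 0.690). Averaged over the codes it was -0.17 (SE 0.18, 95% interval -0.60 to 0.25, edgeR adjusted p = 0.878). Il18, whose product is matured by the same caspase-1, lies at chr9:50554827-50581840. It stood at 4.49, 3.45 and 3.06 CPM in WT replicates 1 to 3 and at 4.77, 3.59 and 3.12 CPM in Tg-ACE replicates 1 to 3, nearly equal between genotypes within each replicate number. The genotype difference was 0.06 (SE 0.16, 95% interval -0.32 to 0.44, edgeR adjusted p = 0.958). By code it was 0.48 (SE 0.17), which missed the threshold in edgeR (adjusted p = 0.0524) and passed in limma-voom (0.0464) and with the code as the only term (edgeR, 0.0409).

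Irg1, at chr14:103046977-103056573, encodes the mitochondrial enzyme that makes itaconate from cis-aconitate. It stood at 6.40, 23.1 and 7.56 CPM in WT replicates 1 to 3 and at 4.14, 9.14 and 6.99 CPM in Tg-ACE replicates 1 to 3. WT replicate 2 held far more than any other library, and the rest lay between 4.14 and 9.14 CPM. Irg1 had the largest genotype difference of the tested members, a log2 fold change of -0.84 (SE 0.37, 95% interval -1.70 to 0.02), and it did not pass in edgeR (unadjusted p = 0.0540, adjusted p = 0.771). Without WT replicate 2 it was -0.21. By code it was -1.12 (SE 0.41, edgeR adjusted p = 0.0606), with the Exp-156 libraries below all others, and -0.64 without WT replicate 2. That code difference passed in edgeR without WT replicate 3 (-1.38, adjusted p = 0.00467), with no filter (adjusted p = 0.0300) and with upper-quartile scaling (adjusted p = 0.0469).

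Over the tested members, 0 of 9 had non-overlapping libraries by genotype, where 4.78% of all genes did. By experiment code 8 of 9 did, 5 higher and 3 lower in Exp-156, where 60.0% of all genes did. An exact two-sided permutation test of a single gene cannot go below 0.0667 for 2 libraries against 4, or below 0.1 for 3 against 3. Some members overlap genes annotated on the opposite strand: Il1a with Gm14023, Il1b with Il1bos and Il18 with Bco2 and Tex12. The library kit keeps strand, but whether the counting used it is not known here, so reads of such pairs cannot be told apart.

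**Figure D3:**
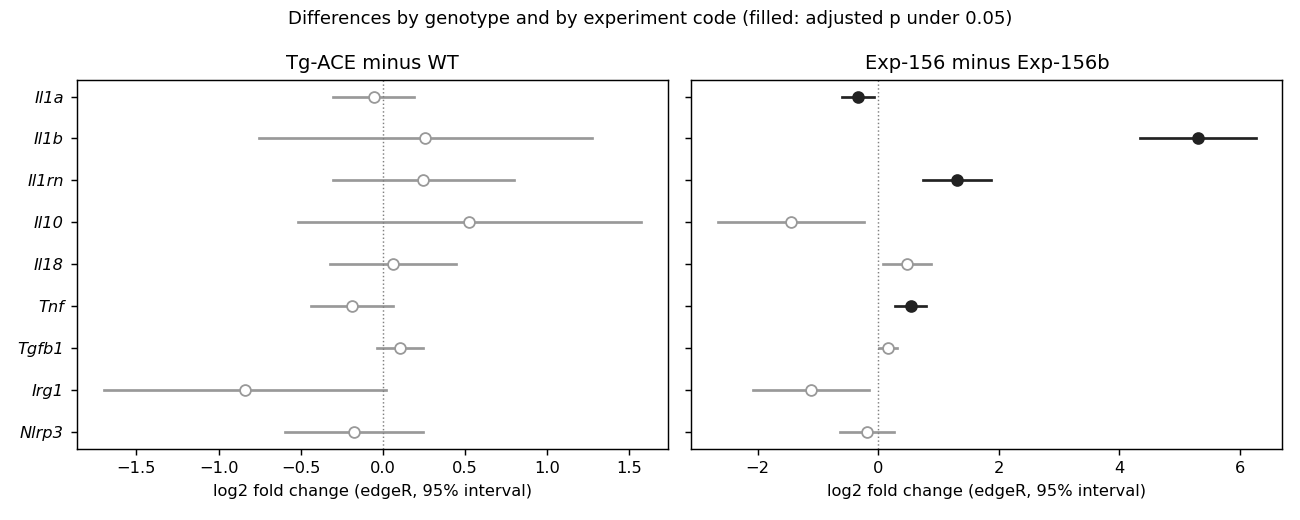
Log2 fold change (horizontal axes) of the 9 tested members (vertical axis) between genotypes, left, and between experiment codes, right, with 95% intervals from the edgeR fit; filled points have an adjusted p under 0.05. All intervals on the left include 0, and on the right Il1b stands at 5.30, apart from the other members.

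**Figure D4:**
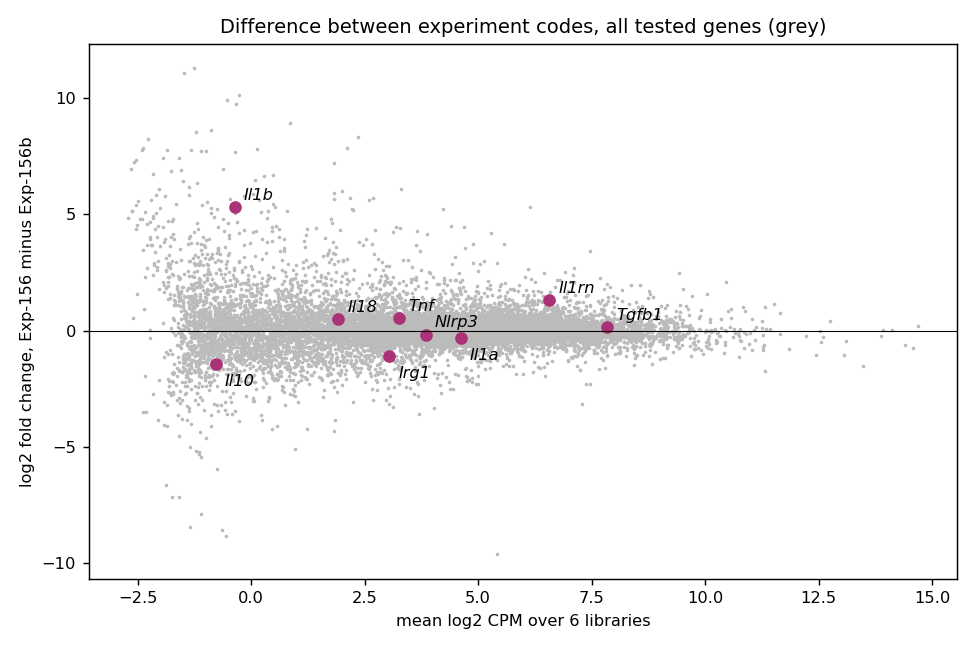
Log2 fold change between experiment codes (vertical axis) against mean log2 CPM over the 6 libraries (horizontal axis) for all 13256 genes tested (grey points), with the 9 tested members in colour. Il1b stands at 5.30, while Tgfb1, at 0.16, and Nlrp3, at -0.18, lie within the grey band.

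Genes with the profile most like 4 of the members were sought among those with a mean of at least 5 CPM, by Pearson's r of log2 CPM over the 6 libraries, which share their experiment codes and give no test. For Il1b the closest were Klc1 (r = 0.998), Galnt10 (r = 0.998) and Tspan14 (r = 0.998), and 69 of 9740 genes reached 0.99. These genes changed far less, Klc1 from between 61.1 and 71.5 CPM in Exp-156b to 104.6 and 106.7 CPM in Exp-156. For Tnf they were Brf1 (r = 0.999), Ccdc142 (r = 0.995) and Fcho2 (r = 0.995), for Il1rn Dcps (r = 0.996), Ppp6r2 (r = 0.994) and Arf1 (r = 0.994), and for Nlrp3 Smcr8 (r = 0.985), Wdr5b (r = 0.982) and Ap1g1 (r = 0.980). They were picked as the highest of all genes so filtered over the same 6 libraries, so high values are what the choice gives.

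The wider pathways were read from 10 lists of other genes. Averaged over the codes, none of their 180 tested genes passed by genotype in edgeR, DESeq2 or limma-voom. In edgeR 9 had an unadjusted p under 0.05 (5% of the 180, beside 6.49% of all genes), with 6 in DESeq2 and 15 in limma-voom. The smallest adjusted p in edgeR was 0.760. In the Exp-156 pair, Mmp9 and Dusp1 were lower in Tg-ACE (79.1 against 220.0 CPM and 189 against 357.5 CPM). Thbs1 was higher there (677.7 against 335.1 CPM). With 1 library of each genotype in Exp-156, that pair tests no genotype difference. By experiment code 79 rose and 32 fell in Exp-156, 61.7% of the 180 beside 43.2% of all genes (23.4% higher and 19.8% lower). By list the share that passed ran from 31.2% to 75%. Of the 79, Fosb, Il1r2 and Tnfsf14 did not pass the filter in the Exp-156b libraries alone and so could enter the test only by being higher in Exp-156, as could 269 of the 3102 higher genes overall.

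Of the IL-1 family receptors and adaptors, 9 of 20 rose and 6 fell in Exp-156, with a median log2 fold change of 0.26. The IL-33 receptor gene Il1rl1 was at 21.3 and 42.9 CPM in Exp-156 against 1.39 to 3.22 CPM (log2 fold change 3.83, SE 0.28, edgeR adjusted p = 6.19e-05). The IL-18 receptor genes Il18rap and Il18r1 had log2 fold changes of 2.73 and 2.26, and Myd88, the adaptor of the whole receptor family, 0.77. Of the inflammasome genes, 8 of 18 rose and 4 fell, with a median of 0.28. P2rx7, the ATP-gated channel upstream of NLRP3, was at 131.7 and 132.6 CPM against 68.4 to 77.1 CPM (log2 fold change 0.89, SE 0.07, edgeR adjusted p = 8.93e-05). The sensor genes Nlrp1a, Nlrp1b and Naip5 had log2 fold changes of 2.12, 1.37 and 0.67.

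Of the TNF pathway genes, 10 of 18 rose and 2 fell, with a median log2 fold change of 0.26. Zfp36, which encodes a protein that destabilises Tnf mRNA, was at 198.5 and 220.7 CPM against 61.6 to 70.2 CPM (log2 fold change 1.68, SE 0.06, edgeR adjusted p = 3.32e-06). The cytokine gene Ltb rose by a log2 fold change of 2.49, the RNA-binding protein gene Zfp36l1 by 0.99 and the ubiquitin ligase gene Birc3 by 0.61. Of the NF-κB and feedback genes, 10 of 19 rose and 3 fell, with a median of 0.29. The phosphatase gene Dusp1 had a log2 fold change of 3.71, the inhibitor gene Nfkbia 0.68, Nfkb1 0.37 and Tnip1 -0.74. Of the IL-6 and IL-10 signalling genes, 7 of 14 rose and 2 fell, with a median of 0.43. Socs3, a feedback inhibitor of cytokine receptors, had a log2 fold change of 1.41, Il10ra 0.85, Pias3 0.62 and Tyk2 0.53.

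Of the TGF-β pathway genes, 6 of 23 rose and 5 fell (47.8%, near the 43.2% of all genes), with a median log2 fold change of -0.10. Thbs1, whose product can activate latent TGF-β1, was at 335.1 and 677.7 CPM in Exp-156 against 51.8 to 90.0 CPM (log2 fold change 2.68, SE 0.28, edgeR adjusted p = 0.000307). Nrros, which encodes an anchor of latent TGF-β1 on macrophages, had a log2 fold change of 1.43, Tgfbi 2.91 and the matrix protein gene Ltbp2 -3.34. Of the itaconate and tricarboxylic acid cycle genes, 3 of 16 rose and 2 fell (31.2%, below the share of all genes), with a median of -0.11. Aco1 and Clybl had log2 fold changes of 0.39 and 0.59, and Suclg1 one of -0.38.

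Of other cytokine genes, 7 of 17 tested rose and 2 fell, with a median log2 fold change of 0.31, and the list held 29 genes in all. Tnfsf14 had a log2 fold change of 5.81, Il4 3.23, Il16 2.19 and Il15 0.65. Of inducible effectors and chemokines, 8 of 19 rose and 5 fell, with a median of 0.56. The chemokine gene Cxcl2 was at 42.4 and 60.9 CPM against 0.995 to 1.69 CPM (log2 fold change 5.19, SE 0.18, edgeR adjusted p = 2.83e-06). The arginase gene Arg1 had a log2 fold change of 5.31, Mmp9 3.54 and Cd40 2.40. Immediate early genes are induced within minutes of a stimulus or of cell handling. Their list also held the heat shock genes Hspa1a, Hspa1b, Dnajb1 and Hsph1. Of that list 11 of 16 rose and 1 fell, with a median of 0.94. Fos was at 236.9 and 307.5 CPM against 12.7 to 16.2 CPM (log2 fold change 4.20, SE 0.12, edgeR adjusted p = 1.15e-06). Fosb, Nr4a1 and Jun had log2 fold changes of 4.62, 2.94 and 1.13.

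Markers of other cells and of macrophage subsets also moved with the code beside Il1b, Il1rn and Tnf. Of 8 monocyte and small peritoneal macrophage markers 7 rose in Exp-156. The list summed to between 878.6 and 944.2 CPM there and 180.1 to 434.4 CPM in Exp-156b. That sum was mostly Mrc1, at 478.0 and 546.1 CPM in Exp-156 against 119.9 to 266.0 CPM in Exp-156b. The chemokine receptor gene Ccr2 of this list was at 191.8 and 175.4 CPM against 1.32 to 6.15 CPM. Of 7 dendritic cell markers 6 rose, with sums of 51.3 to 65.8 against 5.35 to 9.87 CPM. Of 10 neutrophil markers 3 of the 5 tested rose, with sums of 255.9 to 565.0 against 80.5 to 91.6 CPM. Retnlg was at 437.0 and 128.2 CPM in Exp-156, while the defining neutrophil marker Ly6g was at 0 in 5 libraries and at 0.0408 CPM in WT replicate 1, and Camp was at 0.119 CPM or less in every library. All 4 tested of 8 eosinophil markers rose, with sums of 117.7 to 259.6 against 11.5 to 22.1 CPM. The others, Epx, Prg2, Ear1 and Ear6, were not tested and were at 0.857 CPM or less in every library. Mast cell and basophil markers summed to 62.3 to 96.3 against 14.2 to 29.0 CPM (6 of 7 rose). T and NK cell markers summed to 26.3 to 31.1 against 7.07 to 9.67 CPM (9 of 10 rose). In Exp-156 the WT library held more than the Tg-ACE library for the neutrophil sum (565.0 against 255.9 CPM) and the eosinophil sum (259.6 against 117.7 CPM). The dendritic cell, mast cell and basophil, and T and NK cell sums were also higher in that WT library, and the monocyte sum was lower. With 1 library of each genotype there, no genotype difference is tested by these sums.

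Some of these markers, like Il1b, did not pass the filter on low counts in the Exp-156b libraries alone. They could therefore enter the test only by being higher in Exp-156, and their count as risen adds no support beyond their values. They were 4 of the 6 dendritic cell markers that rose (Cd209a, Flt3, Siglech and Xcr1), 5 of the 9 T and NK cell markers, and 1 each of the monocyte (Cd226), neutrophil (S100a9), eosinophil (Ccr3) and large peritoneal macrophage (Timd4) markers.

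Large peritoneal macrophage markers summed to 45.2 to 52.9 CPM in Exp-156 against 20.1 to 25.7 CPM, with 3 of 5 higher and Gata6 lower (log2 fold change -1.42). B cell markers overlapped, at 96.1 to 122.5 against 57.0 to 129.5 CPM, and 0 of 6 passed. Mesothelial cell and fibroblast markers were lower in sum, at 142.1 to 152.0 against 167.8 to 329.5 CPM, with 5 of 8 lower and 1 higher. Of the macrophage genes 6 of 9 rows rose and 0 fell, with sums that overlapped and were mostly Lyz2, at 14309 to 18042 CPM. Itgam was at 1636 and 1710 CPM in Exp-156 against 391.5 to 627.8 CPM, and Adgre1 at 629.8 and 644.0 against 213.7 to 351.4 CPM. No gene of these lists passed by genotype. In bulk RNA, fewer cells of a type and less RNA per cell cannot be told apart, and the part of these cells or of the immediate early genes in the code differences of Il1b, Il1rn and Tnf was not tested.

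**Figure D5:**
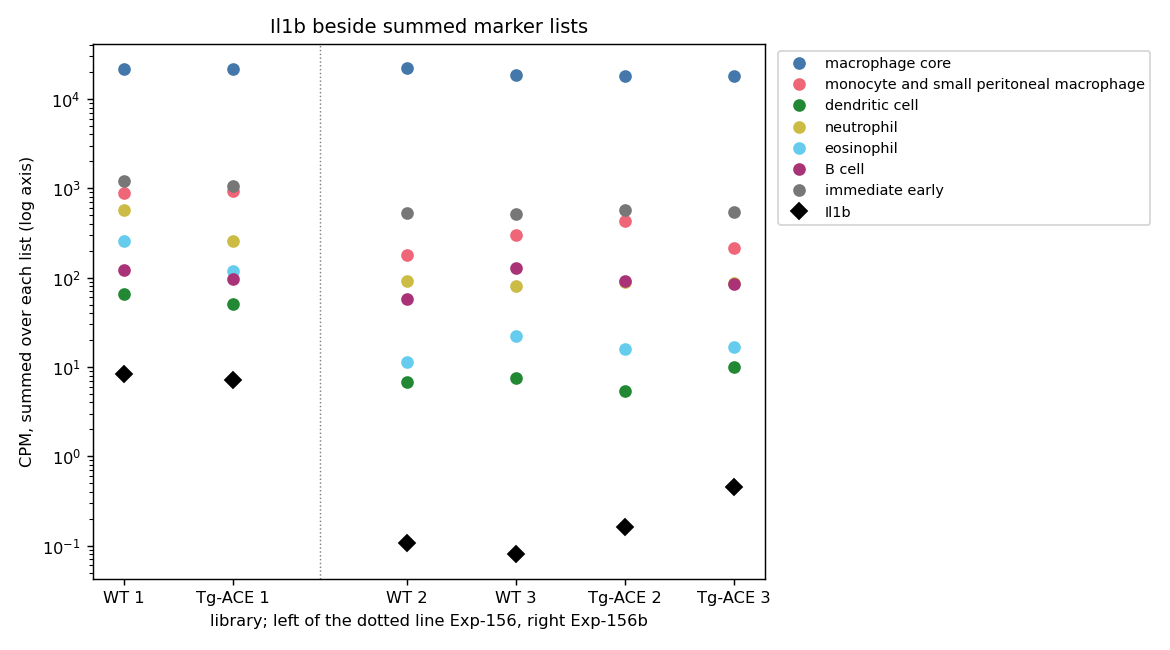
Il1b (diamonds) beside summed CPM (vertical axis, log scale) in each library (horizontal axis, where 1 point is 1 library). The sums are of 6 cell marker lists and of the immediate early list, which also holds heat shock genes. The macrophage list, mostly Lyz2, lies between 18065 and 22035 CPM, and the dendritic cell, eosinophil and neutrophil lists stand higher in both Exp-156 libraries, as does Il1b.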

How the data were processed

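The deposited table holds expected counts per gene for the 6 libraries, not normalized. The submitters' processing notes name STAR 2.5.0, RSEM 1.2.25, GRCh38 and mm10 without their roles. Counting with RSEM divides reads that match several transcripts, and between 11.0% and 11.3% of values per library were not whole, so values were rounded. The 92 spike-in rows summed to 1 count and were left out. Groups and experiment codes came from sample titles and descriptions; the series' design text names Tg-NKO where the labels say Tg-ACE, and the labels were followed.

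Genes that passed filterByExpr were fitted in edgeR 4.0.16 (R 4.3.3; TMM, quasi-likelihood test, Benjamini-Hochberg over all genes, threshold 0.05). The experiment code was a term because each genotype holds both codes and the biological coefficient of variation was 0.108 with it and 0.310 without. Log2 CPM used a prior count of 2. DESeq2 1.42.0 and limma 3.58.1 were alternatives, and the fit was tested on simulated data. Members, lists, named-gene rules and tests were chosen with earlier results of these data known. The named pathway genes are up to 4 per list with the smallest p among those that passed, of which 1 is not reported here; all 10 members are named. Coordinates and exon lengths are from GENCODE vM21 (GRCm38).

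Same-numbered libraries of the 2 genotypes deviated together (r = 0.871, 0.533 and 0.667 over genes), but so did crossed replicates 2 and 3 (0.567 and 0.638), and with the code removed the numbered pairs gave -0.158 and -0.0894. The pairing by number therefore goes with the code.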

Additional observations from a re-analysis of the deposited data

Results flagged for a closer look

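Irg1 in WT replicate 2 stood apart from the other 3 libraries of Exp-156b, at 23.1 CPM beside 7.56, 9.14 and 6.99 CPM. Its gap to the nearest library was 0.867 of the range, above Dixon's 95% critical value for 4 samples, which chance exceeds in about 1 in 20 groups, and all 10 genes were looked at this way.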

How the results depend on the processing

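No member passed by genotype in edgeR under any of the alternatives run. The count over all genes was 2 in the main fit and with a replicate block (the same genes, Dhrs7 and Gm10709; the block changed no member's call), 0 with genotype alone, 37 in DESeq2, 9 with no filter and 6 in limma-voom, and 2 to 3 on leaving out each library. By experiment code 3553 to 5260 genes passed on leaving out each library, beside 5732. Upper-quartile scaling gave 2634 higher and 3353 lower genes where the main scaling gave 3102 and 2630, a share of 44% against 54.1% higher, with a median shift over all genes of -0.06. For the interaction DESeq2 called 13 genes where edgeR called 0; the cause was not tested.

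The genotype differences of some members changed sign in some settings, none of them past the threshold. On the log2 scale Il1b was -0.13 with genotype alone and -0.065 in limma-voom, Il1rn -0.00380 with genotype alone, and Il1a 0.035 in Exp-156b alone. On leaving out each library Il1a ranged from -0.19 to 0.036, Il1b from -0.10 to 1.65 and Nlrp3 from -0.44 to 0.013 by genotype, and Nlrp3 from -0.59 to 0.21 by experiment code. The cause of these changes was not tested. Of the experiment code differences, Il1rn passed in all alternatives run. With 2 to 11 counts of Il1b and 0 to 3 of Il6 per library of Exp-156b, ratios there have wide counting intervals.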
